A study of Homo sapiens with 6 samples.

Results

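The interleukin and chemokine genes of the senescence-associated secretory phenotype examined here, IL1A, IL1B, IL6, IL11, CXCL1, CXCL2 and CCL20, were taken by gene symbol from the authors' deposited table of genes that differed between mitoxantrone and DMSO. All 7 were in it, among 4546 genes in all. They were measured by RNA sequencing in A549, a widely used line derived from a human lung adenocarcinoma, in 3 libraries of cells given 50 nM mitoxantrone for 48 hours and 3 libraries of cells given DMSO, the solvent, at a dilution of 1 in 1000 for the same time. Mitoxantrone poisons DNA topoisomerase II and is used to drive tumour cells into a senescent arrest, which the series title names as its subject. All libraries come from this 1 line, and the labels do not say whether replicates were separate cultures, so a p-value here reflects the spread among these libraries alone, which may be technical.

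Cells that stop dividing after DNA damage often release a mixture of cytokines, chemokines, growth factors and proteases, the senescence-associated secretory phenotype. In this mixture interleukin-1 alpha acts upstream: it binds the interleukin-1 receptor, which signals through MYD88 to the transcription factor NF-kappaB, and NF-kappaB with C/EBP and AP-1 factors drives IL6 and the chemokine genes. Interleukin-6 and interleukin-11 share the receptor chain IL6ST and signal through JAK kinases and STAT3. CXCL1 and CXCL2 attract neutrophils through the receptor CXCR2, and CCL20 attracts lymphocytes and dendritic cells through CCR6.

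The libraries held between 16681380 and 19352443 reads with mitoxantrone and between 20380674 and 21781220 with DMSO. Every gene in the deposited table has an absolute log2 fold change of at least 1.00 and an adjusted p of at most 0.0497 in the authors' test on these same libraries, so a gene that is not listed has no value here and may or may not have changed. Of 10 epithelial markers fixed for the line, 4 were listed: KRT8, KRT19 and CDH1, which were higher, and MUC5AC, which was lower. Their summed normalized counts were 139840 to 153840 with mitoxantrone and 59489 to 68295 with DMSO. KRT8 made up most of these sums, with means of 137470 with mitoxantrone and 63454 with DMSO. Of 15 leukocyte markers 3 were listed, all higher (CD8A, CD14 and ITGAX), where 58.9% of all listed genes were higher, with sums of 252 to 258 with mitoxantrone and 41.8 to 56.9 with DMSO. The pan-leukocyte gene PTPRC and the T cell genes CD3D and CD3E were not listed, and the part of other cells in the results below was not tested. Of 10 fibroblast markers 2 were listed, COL1A1, which was lower, and THY1, which was higher, with sums of 306 to 391 with mitoxantrone and 618 to 674 with DMSO. Fewer cells expressing a gene and less RNA per cell cannot be told apart in these bulk samples.

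The 7 genes moved in both directions. After mitoxantrone 2 rose, IL1B and CXCL1, and 5 fell, IL1A, IL6, IL11, CXCL2 and CCL20, each past an adjusted p of 0.05 in edgeR's quasi-likelihood test on the raw counts. Over all listed genes 58.9% were called higher and 41.1% lower. All 4546 listed genes passed that test, or 100%, since they had been chosen on these libraries, and passing it is no independent evidence of change. The groups did not overlap in normalized counts, which are reads divided by a size factor for each library, in any of the 7 genes. The same held for 98.3% of all listed genes, 57.5% with mitoxantrone higher and 40.8% with it lower. The median log2 fold change was -2.19 over the 7 genes and 1.20 over all listed genes, and the median absolute value was 2.20 for the 7 genes and 1.70 for all. Against a change of 2-fold (glmTreat in edgeR) all 7 also passed, and 80.6% of all listed genes did, 48.5% higher and 32.1% lower.

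**Figure D1:**
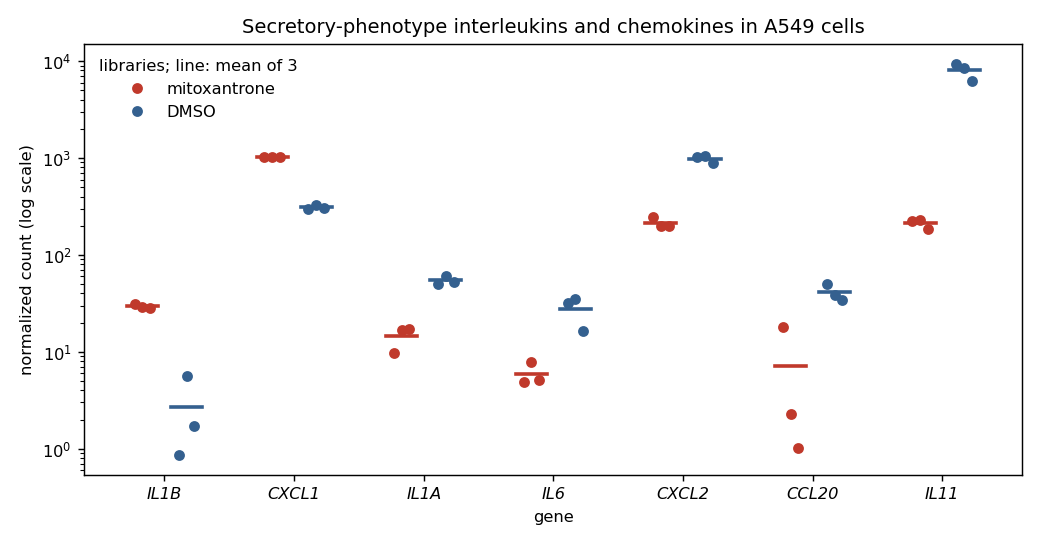
Normalized read counts (log scale) of the 7 genes in each mitoxantrone library and each DMSO library; points are libraries and lines are means of 3. IL1B and CXCL1 lie higher with mitoxantrone and the other 5 genes lower, with no overlap of the groups, and CCL20 is spread most widely among the mitoxantrone libraries, from 1.02 to 18.1.

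IL11, a cytokine of the interleukin-6 family linked to fibrosis and epithelial tumours, gave the most reads of the 7 genes with DMSO and had the largest fall. Its normalized counts were 225, 228 and 185 in mitoxantrone libraries 1 to 3, against 9433, 8459 and 6247 in DMSO libraries 1 to 3. The highest mitoxantrone library was far below the lowest DMSO library, and DMSO 3 was the lowest of its group. The means were 213 ± 24.2 with mitoxantrone and 8046 ± 1633 with DMSO (SD, n = 3 libraries each), a 37.9-fold difference. The log2 fold change was -5.25 ± 0.11 (SE; edgeR, adjusted p = 1.4e-34), and 52 of the 4546 listed genes had a lower one. A fitted log2 fold change of -5 or lower was found in 1.54% of listed genes. The gene lies at 55875757 to 55881831 on the minus strand of chromosome 19 in the deposited table, which names no genome build.

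IL6, the best known interleukin of the senescent secretome, was low in both groups and close to the limit of detection with mitoxantrone. It had 4, 7 and 5 reads in mitoxantrone libraries 1 to 3, against 37, 38 and 19 reads in DMSO libraries 1 to 3. Every mitoxantrone library was below every DMSO library, and DMSO 3 had fewer reads than the other DMSO libraries. In normalized counts the means were 5.95 ± 1.70 with mitoxantrone and 27.8 ± 10.1 with DMSO (log2 fold change -2.20 ± 0.42; edgeR, adjusted p = 7.8e-06). From the 16 reads over the mitoxantrone libraries and the 94 over the DMSO libraries, the level was 4.65-fold lower with mitoxantrone, with an exact 95% interval of 2.72 to 8.47 that covers counting error only. The gene lies on chromosome 7 at 22765503 to 22771621 in the deposited table. In GENCODE 29 it overlaps STEAP1B and the antisense gene AC073072.1 on the opposite strand, and the labels do not say whether strand was kept, so the gene of origin of some reads is uncertain.

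Although both interleukins of this family fell, they did so by different amounts. The log2 ratio of IL6 to IL11 reads within a library, which does not depend on how libraries are scaled, was -5.37, -4.75 and -5.04 in mitoxantrone libraries 1 to 3, against -8.20, -7.89 and -8.54 in DMSO libraries 1 to 3. The means were -5.06 ± 0.31 with mitoxantrone and -8.21 ± 0.33 with DMSO, a difference of 3.15. The groups did not overlap, and the exact two-sided permutation test gave p = 0.1, the smallest value that 3 libraries against 3 allow (0.1 after Benjamini-Hochberg adjustment over the 3 ratios examined). IL6 and IL11 were listed because they differed between these same libraries, and were chosen with earlier results of these data known. The test of their ratio is thus no independent evidence.

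The 2 genes of interleukin-1, neighbours on chromosome 2, moved in opposite directions. Interleukin-1 alpha is active as made and acts as an alarm signal from damaged cells, and interleukin-1 beta must be cut by caspase-1 before it is released. IL1A (113531492 to 113542167, minus strand) had 8, 15 and 17 reads in mitoxantrone libraries 1 to 3, against 59, 66 and 61 reads in DMSO libraries 1 to 3. IL1B (113587328 to 113594480, minus strand) had 26, 26 and 28 reads in mitoxantrone libraries 1 to 3, against 1, 6 and 2 reads in DMSO libraries 1 to 3. Every mitoxantrone library was below every DMSO library for IL1A and above every DMSO library for IL1B. Mitoxantrone 1 was the lowest of its group for IL1A, and DMSO 2 had most of the IL1B reads of its group. The starts of the genes in the table are 55836 bases apart.

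Normalized counts of IL1A averaged 14.7 ± 4.31 with mitoxantrone and 54.8 ± 5.70 with DMSO (log2 fold change -1.88 ± 0.28; edgeR, adjusted p = 7.2e-08). Those of IL1B averaged 29.8 ± 1.49 with mitoxantrone and 2.72 ± 2.51 with DMSO (log2 fold change 3.43 ± 0.47; adjusted p = 1.3e-08). The IL1B value rests on 9 reads over the DMSO libraries: the ratio of summed reads was 11.2 (exact 95% interval 5.63 to 25.5), and without DMSO 2, which leaves 3 DMSO reads, it was 23.0 (7.60 to 114). The log2 ratio of IL1B to IL1A reads was 1.64, 0.77 and 0.70 in mitoxantrone libraries 1 to 3, against -5.31, -3.35 and -4.62 in DMSO libraries 1 to 3. IL1B had more reads than IL1A in every mitoxantrone library and fewer in every DMSO library. The mean ratio differed by 5.47 log2 units (exact two-sided permutation test, p = 0.1, the smallest possible, and 0.1 adjusted over the 3 ratios). Both genes were listed because they differed between these same libraries, and they did so in opposite directions. A gap in their ratio was thus largely set beforehand, and its test is no independent evidence.

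The listed genes of interleukin-1 maturation and release were higher together with IL1B. Of 9 such genes 6 were listed, and each of the 6 was higher, with a median log2 fold change of 1.95, where 58.9% of all listed genes were higher. CASP1, the protease that cuts the interleukin-1 beta precursor, had 77 reads over the mitoxantrone libraries and 1 over the DMSO libraries, 97.3 times as many after scaling (exact 95% interval 16.95 to 3893). PYCARD, the adaptor that links sensors to caspase-1, averaged 640 ± 60.7 with mitoxantrone and 152 ± 4.37 with DMSO (2.07 ± 0.11 log2). NLRP1, an inflammasome sensor, averaged 343 ± 21.3 with mitoxantrone and 63.6 ± 16.1 with DMSO (2.43 ± 0.14 log2). CASP4, an inflammatory caspase, rose by 1.83 on the log2 scale, and the calpain genes CAPN1 and CAPN2, proteases of the kind that cut the interleukin-1 alpha precursor, by 1.56 and 1.00. NLRP3, CASP5 and GSDMD were not listed.

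CXCL1 and CXCL2 are near relatives on chromosome 4 that share a receptor, and they too moved apart. CXCL1 (74735110 to 74736959, plus strand) had normalized counts of 1034, 1018 and 1029 in mitoxantrone libraries 1 to 3, against 298, 329 and 304 in DMSO libraries 1 to 3. CXCL2 (74962752 to 74965010, minus strand) had 248, 199 and 201 in mitoxantrone libraries 1 to 3, against 1013, 1046 and 883 in DMSO libraries 1 to 3. Both sets of values were tight within groups, and the group that was high for 1 gene was low for the other. CXCL1 was 3.31-fold higher with mitoxantrone (mitoxantrone mean 1027 ± 8.26, DMSO mean 310 ± 16.5; 1.73 ± 0.09 log2; edgeR, adjusted p = 1.5e-21). CXCL2 was 4.54-fold lower (mitoxantrone mean 216 ± 27.8, DMSO mean 981 ± 86.3; -2.19 ± 0.10 log2; edgeR, adjusted p = 6.4e-23).

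The log2 ratio of CXCL1 to CXCL2 reads was 2.06, 2.35 and 2.35 in mitoxantrone libraries 1 to 3, against -1.77, -1.67 and -1.54 in DMSO libraries 1 to 3. Mitoxantrone libraries thus had more CXCL1 than CXCL2 reads and DMSO libraries fewer. The mean ratio was 2.26 ± 0.17 with mitoxantrone and -1.66 ± 0.12 with DMSO, a 15.1-fold shift (exact two-sided permutation test, p = 0.1, the smallest possible; adjusted over the 3 ratios, 0.1). CXCL1 and CXCL2 too were listed because they differed between these libraries, in opposite directions, so this test is no independent evidence of a shift. Because the genes are similar, reads could be assigned to the wrong one. In GENCODE 29 the longest coding transcripts of the genes were identical in 80.4% of 1229 aligned columns. Of 948 windows of 150 bases, the length of a read, in that CXCL1 transcript, 0 occurred whole in a CXCL2 transcript, and of 1048 windows of 50 bases 60 did, or 5.73%. Between CXCL2 and the related CXCL3, 54 of 1169 windows of 50 bases were shared and 0 of 150 bases.

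**Figure D2:**
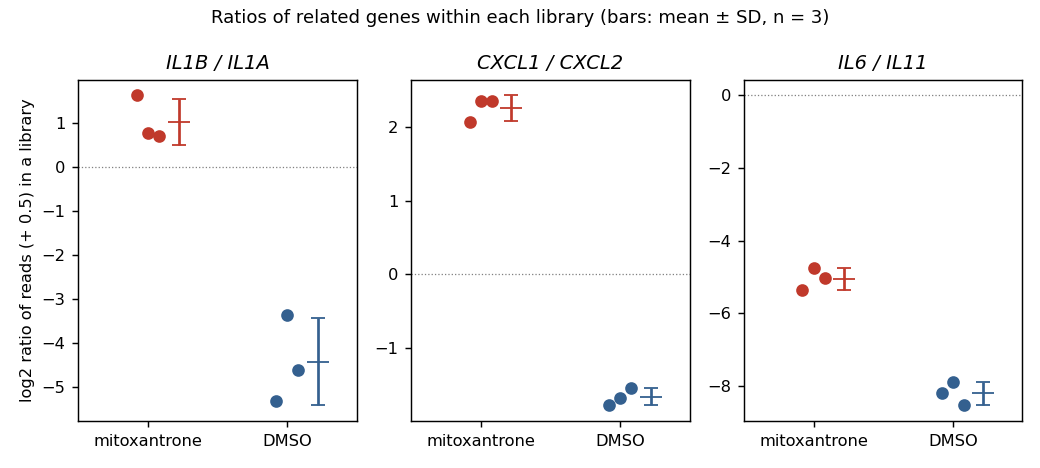
Log2 ratio of reads (0.5 added to each count) of IL1B to IL1A, CXCL1 to CXCL2 and IL6 to IL11 within each library, mitoxantrone left and DMSO right, with mean ± SD of 3 libraries beside the points. The first 2 ratios lie above 0 in all mitoxantrone libraries and below 0 in all DMSO libraries, and the IL6 to IL11 ratio is below 0 in both groups and higher with mitoxantrone.

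The promoters of these genes are shown because CXCL1 and CXCL2 moved apart while their promoters are alike in part. Each is the 250 bases before the gene's start in RefSeq (GRCh38.p14), written 5′ to 3′ on the gene's strand. Capitals mark matches to the NF-kappaB motif, which is GGGA and TTCC with any 2 bases between them, in CXCL1, CXCL2 and IL6, and to the AP-1 motif, TGA and TCA with any 1 base between them, in IL11. Both were searched on both strands, and the capitals in CXCL1 and CXCL2 cover 2 overlapping NF-kappaB matches. The spans are chr4:73869143-73869392 (plus strand) for CXCL1, chr4:74099196-74099445 (minus strand) for CXCL2, chr7:22726950-22727199 (plus strand) for IL6 and chr19:55370464-55370713 (minus strand) for IL11.
CXCL1: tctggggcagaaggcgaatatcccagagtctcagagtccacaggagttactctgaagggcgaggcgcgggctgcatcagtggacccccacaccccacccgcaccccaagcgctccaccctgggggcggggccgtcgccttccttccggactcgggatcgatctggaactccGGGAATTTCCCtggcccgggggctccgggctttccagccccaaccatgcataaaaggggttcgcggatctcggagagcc
CXCL2: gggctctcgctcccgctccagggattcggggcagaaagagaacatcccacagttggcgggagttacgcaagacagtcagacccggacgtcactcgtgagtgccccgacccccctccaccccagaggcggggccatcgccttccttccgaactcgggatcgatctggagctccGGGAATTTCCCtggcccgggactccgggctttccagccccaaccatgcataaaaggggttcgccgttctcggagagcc
IL6: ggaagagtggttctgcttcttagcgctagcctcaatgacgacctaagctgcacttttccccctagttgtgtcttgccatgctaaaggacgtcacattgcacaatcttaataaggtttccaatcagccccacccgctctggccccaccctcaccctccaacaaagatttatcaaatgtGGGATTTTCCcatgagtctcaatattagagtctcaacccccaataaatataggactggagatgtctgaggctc
IL11: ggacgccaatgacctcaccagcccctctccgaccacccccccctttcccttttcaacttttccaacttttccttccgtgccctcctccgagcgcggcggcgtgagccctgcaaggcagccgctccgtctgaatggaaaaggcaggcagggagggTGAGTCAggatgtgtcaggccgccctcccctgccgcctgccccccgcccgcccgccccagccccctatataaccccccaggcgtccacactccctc

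The CXCL1 and CXCL2 windows were identical in 70.1% of 281 aligned columns, and their longest identical run was 42 bases, from -57 to -16 before the start in both genes. The windows of IL1B and IL1A, aligned in the same way, were identical in 49.8% of 295 columns. CXCL1 and CXCL2 each held the NF-kappaB motif at nearly the same place, from -79 to -70 and from -78 to -69. Each had an overlapping match on the other strand 1 base further on. IL6 held 1 match, from -73 to -64. This motif was found in 1.4% of 35116 RefSeq promoter windows of the same length. Of the 7 genes, 3 therefore held it, of which CXCL1 was higher and CXCL2 and IL6 lower with mitoxantrone. The AP-1 motif, in 6.57% of windows, was found once in IL11, from -96 to -90, and in both RefSeq starts of IL1A. Neither motif was found in these windows of IL1B and CCL20, which says only that the letters are not there.

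CCL20 was low and its mitoxantrone libraries disagreed. It had 15, 2 and 1 reads in mitoxantrone libraries 1 to 3, against 58, 42 and 40 reads in DMSO libraries 1 to 3. Mitoxantrone 1 stood apart from its group: its normalized count was 18.1 with an exact 95% Poisson interval of 10.2 to 29.9, where the intervals of mitoxantrone 2 and 3 reached 8.16 and 5.68. All 3 mitoxantrone libraries were nonetheless below all DMSO libraries. The means were 7.14 ± 9.55 with mitoxantrone and 41.1 ± 7.83 with DMSO (log2 fold change -2.59 ± 0.43; edgeR, adjusted p = 5.8e-07; authors' deposited table, -1.56 with an adjusted p of 0.0299). Without mitoxantrone 1, the remaining 3 mitoxantrone reads gave a level 25.6-fold lower than with DMSO (exact 95% interval 8.58 to 126), against 6.15-fold with all libraries. The gene lies at 228678558 to 228682272 on chromosome 2.

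**Figure D3:**
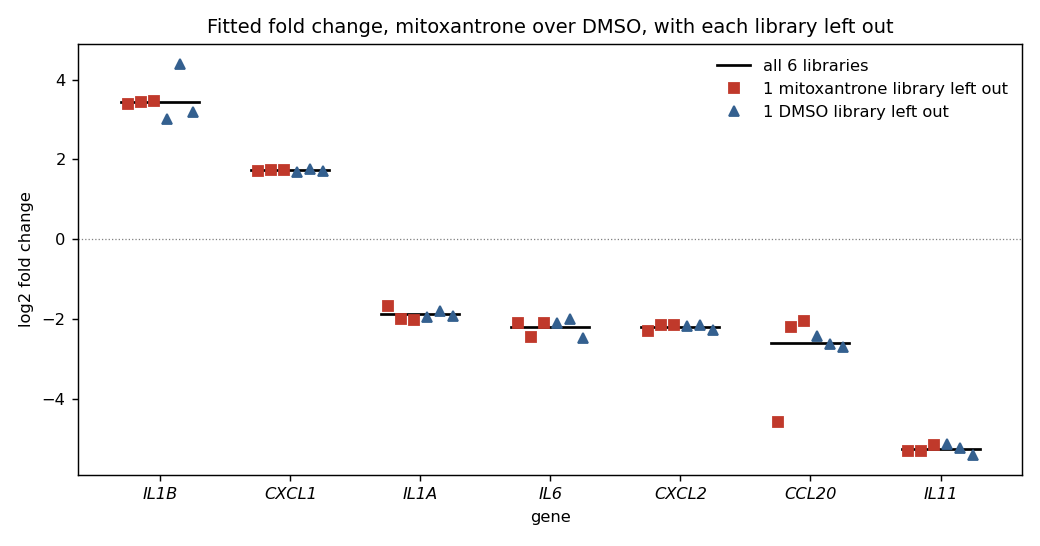
Log2 fold change (mitoxantrone over DMSO) of each gene from the edgeR fit with all 6 libraries (black line) and with 1 mitoxantrone library (squares) or 1 DMSO library (triangles) left out. The values of CXCL1 and CXCL2 stay close to the line, while CCL20 reaches -4.58 without mitoxantrone 1 and IL1B 4.40 without DMSO 2.

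Because FPKM values (fragments scaled by gene length and library size) allow for length, the genes can be ranked by them within a group. With mitoxantrone CXCL1 was the highest at 39.9 ± 0.34 FPKM, followed by CXCL2 at 7.23 ± 0.83, IL11 at 3.997 ± 0.44 and IL1B at 0.48 ± 0.02. IL1A at 0.35 ± 0.10, CCL20 at 0.27 ± 0.35 and IL6 at 0.11 ± 0.03 FPKM had the lowest means. CCL20 ranged from 0.04 to 0.67 FPKM, which spans the values of IL1B, IL1A and IL6, so its place among them is not settled. With DMSO the order was IL11 at 160.7 ± 32.3, CXCL2 at 34.9 ± 2.86, CXCL1 at 12.8 ± 0.57, CCL20 at 1.64 ± 0.31, IL1A at 1.38 ± 0.13, IL6 at 0.55 ± 0.20 and IL1B at 0.05 ± 0.05 FPKM (SD, n = 3 each), where CCL20 and IL1A overlapped.

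The summed level of the 7 genes was 53.4, 51.9 and 51.5 FPKM in mitoxantrone libraries 1 to 3, against 241.5, 221.4 and 172.8 FPKM in DMSO libraries 1 to 3. CXCL1 made up 74.1% to 78.1% of that sum with mitoxantrone and 5.09% to 7.30% with DMSO. IL11 made up 6.79% to 8.32% with mitoxantrone and 72.6% to 78.3% with DMSO. The shares of CXCL2 overlapped, 12.9% to 15.3% with mitoxantrone and 15.0% to 18.3% with DMSO. The leading transcript of the set was thus IL11 in DMSO cells and CXCL1 in mitoxantrone cells, while IL6 and both interleukin-1 genes were minor in both.

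**Figure D4:**
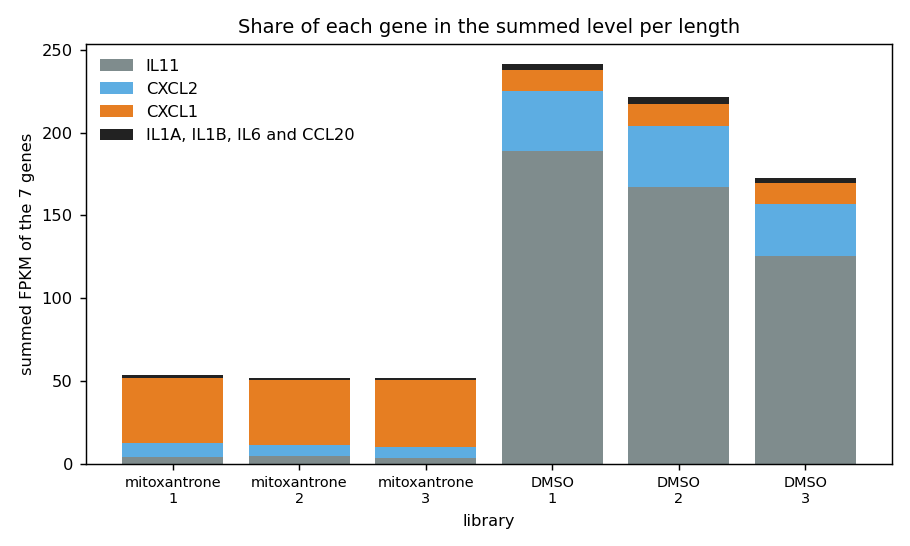
Summed FPKM of the 7 genes in each library, mitoxantrone libraries left and DMSO libraries right, stacked by gene. The sum is 51.5 to 53.4 with mitoxantrone and 172.8 to 241.5 with DMSO, and the main gene is CXCL1 in the first group and IL11 in the second.

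Other cytokines and chemokines were mostly not listed. Of 36 other interleukins and cytokines 5 were listed, 3 higher and 2 lower, where 58.9% of all listed genes were higher. The median of these 5 on the log2 scale was 1.01, against 1.20 over all listed genes. LIF, a further interleukin-6 family cytokine, averaged 2225 ± 137 with mitoxantrone and 5766 ± 619 with DMSO (-1.37 ± 0.07 log2), and IL15, which sustains NK and T cells, fell by 1.20. EBI3, a subunit of interleukins 27 and 35, averaged 201 ± 27.2 with mitoxantrone and 19.6 ± 5.83 with DMSO (3.36 ± 0.19 log2). IL32 rose by 1.01, and IL16 had 12 reads with mitoxantrone and 1 with DMSO (ratio 15.2, exact 95% interval 2.24 to 648). TNF, CSF2, CSF3 and IL1RN, the interleukin-1 receptor antagonist, were not listed.

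Of 33 other chemokines 4 were listed, 2 higher and 2 lower, where 58.9% of all listed genes were higher. The median of these 4 was 1.06, or 0.65 with 3 reads put in place of the 0 DMSO reads of PPBP, against 1.20 over all listed genes. CXCL3, the close relative of CXCL1 and CXCL2 that lies between them, averaged 175 ± 5.69 with mitoxantrone and 359 ± 8.01 with DMSO (-1.03 ± 0.11 log2), so in this cluster CXCL2 and CXCL3 were lower and CXCL1 higher. PPBP, of the same cluster, had 12 reads over the mitoxantrone libraries and 0 over the DMSO libraries. With 3 reads put in place of the 0 it was 5.06-fold higher, which leaves out the counting error of the 12 reads. CCL26, an attractant of eosinophils, averaged 50.8 ± 6.40 with mitoxantrone and 5.63 ± 2.66 with DMSO (3.15 ± 0.35 log2). CXCL12, the ligand of CXCR4, was low and averaged 3.30 ± 0.83 with mitoxantrone and 16.7 ± 8.07 with DMSO (-2.27 ± 0.53 log2). CXCL8, the main neutrophil chemokine of many senescent cells, was not listed.

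Few receptors and signal transducers were listed, and over all listed genes 58.9% were higher. Of 10 receptor genes 2 were listed and both were higher, with a median of 1.43: IL6R averaged 220.5 ± 15.1 with mitoxantrone and 65.8 ± 17.1 with DMSO (1.74 ± 0.15 log2), and IL11RA 165 ± 10.5 with mitoxantrone and 76.0 ± 9.79 with DMSO (1.12 ± 0.15 log2). The receptors thus rose where the ligands IL6 and IL11 fell. IL6ST, IL1R1, CXCR2 and CCR6 were not listed. Of 18 transducers 5 were listed, 3 higher and 2 lower, with a median of 1.06. MYD88, the adaptor of the interleukin-1 receptor, averaged 1504 ± 90.5 with mitoxantrone and 406 ± 24.5 with DMSO (1.89 ± 0.08 log2), and STAT3 rose by 1.06. SOCS3, a feedback inhibitor that STAT3 induces, averaged 391 ± 37.3 with mitoxantrone and 2949 ± 381 with DMSO (-2.92 ± 0.09 log2). JAK2 fell by 1.02, and IRAK3 had 15 reads with mitoxantrone and 3 with DMSO (ratio 6.32, exact 95% interval 1.79 to 34.1).

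Among genes of the NF-kappaB pathway that were in the table, more were lower than higher, and 11 of the list have no value here. Of 19 genes of the NF-kappaB pathway 8 were in the table, 1 higher and 7 lower, and their median was -1.46, where 41.1% of all listed genes were lower. NFKB1 and NFKB2, which encode the precursors of p50 and p52, averaged 760 ± 16.95 and 2945 ± 136 with mitoxantrone, against 1879 ± 185 and 8023 ± 623 with DMSO. TRAF1 (-2.04), TRAF2 (-1.58), BIRC3 (-1.48), IER3 (-1.55) and the inhibitor gene NFKBIE (-1.14) were also lower on the log2 scale. The exception was NFKBIZ, a nuclear cofactor of NF-kappaB, at 815 ± 27.3 with mitoxantrone and 354 ± 37.4 with DMSO (1.20 ± 0.09 log2). Whether the activity of NF-kappaB changed was not tested. RELA, RELB, NFKBIA and TNFAIP3 were not listed.

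Of 17 other regulators 9 were in the table. Each of the 9 was lower, where 41.1% of all listed genes were, and the median was -2.03. The other 8 have no value here. The 9 lower genes included the AP-1 gene JUN, at 2942 ± 116 with mitoxantrone and 10033 ± 1276 with DMSO. Also among the 9 were the AP-1 genes JUNB (-2.03 log2), FOS (-2.04), FOSB (-1.75) and FOSL1 (-1.39), and the stress-induced factor ATF3 (-3.31). CEBPG, a C/EBP family member, fell by 2.47, and HMGB2, a chromatin protein reported to keep secretory genes open in senescent cells, averaged 67.7 ± 7.59 with mitoxantrone and 2288 ± 95.2 with DMSO (-5.08 ± 0.10 log2). CEBPB, the C/EBP factor most tied to IL6, and GATA4 were not listed. Of the 8 genes of cytokine mRNA stability, such as ZFP36 and ZC3H12A, 0 were listed.

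**Figure D5:**
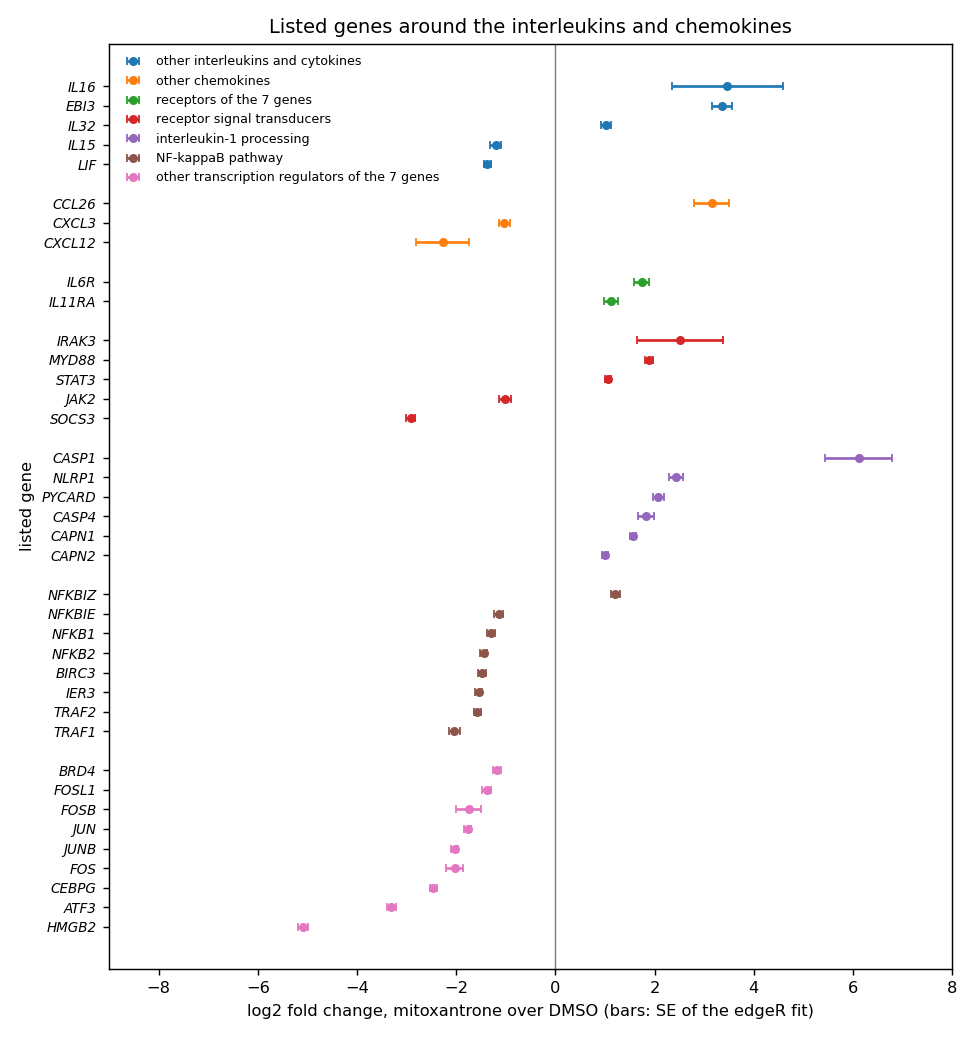
Log2 fold change (mitoxantrone over DMSO; bars are the SE of the edgeR fit) of the listed genes of 7 fixed lists, coloured by list; PPBP, with 0 DMSO reads, is left out. The interleukin-1 processing genes lie above 0, the other transcription regulators below 0, and 7 of 8 NF-kappaB pathway genes below 0.

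Listed genes with a start within 250000 bases were found for 6 of the 7 genes and for IL6 there were 0. IL11 had 9, all 9 lower, of which UBE2S, a ubiquitin-conjugating enzyme of mitosis, averaged 1362 ± 178 with mitoxantrone and 10316 ± 520 with DMSO (-2.92 ± 0.08 log2). The other 8 lay between -3.26 and -1.04, and in 1 of them, COX6B2, the groups overlapped. CTD-2105E13.15 lies within TMEM190 on the opposite strand, so these genes may share reads. They had 13 and 9 reads over the mitoxantrone libraries, against 68 and 49 over the DMSO libraries. On chromosome 19 as a whole 39.8% of 332 listed genes were lower. CKAP2L, a spindle gene 37562 bases from IL1A, was lower (11.6 ± 5.19 with mitoxantrone and 879 ± 43.8 with DMSO), as was POLR1B, a subunit of RNA polymerase I (-1.03). The metabolic gene MTHFD2L beside CXCL2 and DAW1 beside CCL20 were lower by similar amounts (-1.03 and -1.05). No listed gene overlapped any of the 7 in the deposited coordinates.

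For IL11, CXCL1 and CXCL2, which averaged 50 normalized counts or more, the listed genes of nearest profile were sought over the 6 libraries among 2622 genes with that mean, as the root mean square distance between log2 values centred on the DMSO mean. IL11 was nearest to CDC20 (0.20), HMGB2 (0.24) and KIFC1 (0.24), all genes that fell strongly. CXCL1 was nearest to RAB15 (0.05), PAPSS2 (0.05) and FAM83H (0.06), and CXCL2 to CITED4 (0.04), ARHGEF2 (0.05) and MED30 (0.08). With 2 groups this distance reflects mainly the size of the change.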

How the data were processed

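Per the submitters' processing notes, cutadapt 1.9.1, HISAT2 2.0.1, HTSeq 0.6.1, DESeq2, Cufflinks 2.2.1 and SAMtools 0.1.19 were used, and the genome build is not given in the sources used here. The authors deposited 1 table holding raw read counts and FPKM values for each library. Per the file headers it also holds the mean normalized count (a signal: size-factor-scaled counts), the authors' log2 fold change with its error, a score (fold change over error), and p-values before and after adjustment. Per the labels' protocols, libraries were random-primed with 13 PCR cycles, by poly(A) selection or rRNA removal.

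A least-squares fit gave the size factors from the counts and the authors' mean normalized counts (largest relative residual 4.8e-10), and library totals from genes of at least 20 FPKM. Mitoxantrone was compared with DMSO in edgeR 4.0.16 (R 4.3.3) by a quasi-likelihood F-test over all 4546 genes, with no covariate or filter and Benjamini-Hochberg adjustment at 0.05. The SE is the absolute log2 fold change over the square root of F. Dispersion was estimated from the listed genes alone, all chosen for a difference between these libraries. The p-values and SEs therefore depend on that choice. The test was run on simulated counts in which most genes were unchanged, unlike the listed genes, which limits that check. Replicates differed by more than counting error (chi-square per degree of freedom 1.91 to 8.49 over 2615 genes). Alternatives used DESeq2 1.42.0 and limma 3.58.1. The genes and lists were chosen with earlier results of these data known. Named in the results were the 7 genes, every listed gene of a list with 8 or fewer listed, and otherwise the 8 largest changes with a mean of at least 10. Lists were matched by Ensembl identifier through a table of gene names, which held 4371 of the 4546 listed identifiers.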

Additional observations from a re-analysis of the deposited data

How the results depend on the processing

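No result reversed and none of the 7 genes lost its call under any of 15 alternatives: TMM scaling, library totals as scaling, DESeq2, at least 10 counts in at least 3 libraries, an adjusted p of 0.01, a test against a 2-fold change, limma on log2(FPKM + 0.1) and log2(FPKM + 1), the replicate block, and each library left out. Most listed genes were called as well, since they had been chosen on these libraries. Of all 4546, 4523 were called with DESeq2, 4388 with log2(FPKM + 1) and 3664 against a 2-fold change. Relative to the reported fit, TMM moved the median of all genes by -0.26 log2 and log2(FPKM + 1) by -0.27. The larger pseudocount shrank the low genes most, as its construction implies: IL1B to 0.50, IL6 to -0.47, IL1A to -0.82 and CCL20 to -1.09. The largest adjusted p over the alternatives was 0.0164, for CCL20 with DESeq2. With 1 library left out, log2 fold changes ranged from -4.58 to -2.03 for CCL20, 3.01 to 4.40 for IL1B, -2.47 to -1.995 for IL6, -2.02 to -1.67 for IL1A, -5.40 to -5.12 for IL11, -2.29 to -2.13 for CXCL2 and 1.70 to 1.77 for CXCL1. Against a 2-fold change the listed receptors called went to 1 and the transducers called to 3 (1 of them lower), the other chemokines to 3 (1 lower), the other cytokines to 4 and the interleukin-1 processing genes to 5, as the stricter threshold implies, and all calls were 2204 higher and 1460 lower. With the count filter 3710 genes were tested, 1945 higher and 1765 lower, 52.4% higher in place of 58.9%; other chemokines called higher went to 1, and other cytokines and transducers called to 4 each, since genes of few reads were not tested. The differences in log2 ratios with 1 library left out ranged from 5.03 to 6.0 (IL1B to IL1A), 3.86 to 4.01 (CXCL1 to CXCL2) and 2.98 to 3.31 (IL6 to IL11), and from FPKM + 0.1 the first was 3.79. Libraries of the same number showed no shared deviation (correlations of -0.07, -0.08 and 0.03 over 2622 genes); with the replicate block all 4546 calls held, and a paired sign-flip permutation of each ratio gave an exact p of 0.25, the smallest that 3 pairs allow. At 1 to 6 DMSO reads a library for IL1B, and 1 to 15 mitoxantrone reads for CCL20 and IL6, depth limits the size of the fold change.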

Other observations

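Other inflammatory genes were looked at by terms of the deposited annotation, chosen after the values were seen. Of 95 listed genes with the inflammatory response term, some of the 7 genes included, 66 were higher and 29 lower, where 58.9% of all listed genes were higher. The other 4 terms looked at were cytokine activity with 15 higher and 12 lower, growth factor activity with 20 and 19, chemokine activity with 3 and 4, and neutrophil chemotaxis with 9 and 5. The genes named next were picked after their values were seen and follow no rule of size. C3, the central complement component, averaged 15180 ± 812 normalized counts with mitoxantrone and 1506 ± 12.8 with DMSO (log2 fold change 3.33 ± 0.07). PTGES, which makes prostaglandin E, averaged 820 ± 53.8 with mitoxantrone and 170 ± 12.3 with DMSO, and SPP1, osteopontin, 4418 ± 90.9 with mitoxantrone and 1137 ± 84.2 with DMSO. PTAFR, the receptor of platelet-activating factor, averaged 173 ± 15.7 with mitoxantrone and 5.05 ± 2.42 with DMSO, and ALOX5, 5-lipoxygenase, 98.7 ± 15.5 with mitoxantrone and 6.10 ± 5.18 with DMSO. Among those lower was HMGB1, a chromatin protein that acts as an alarm signal outside cells, at 1449 ± 216 with mitoxantrone and 4715 ± 354 with DMSO.

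The run of lower genes around IL11 was also looked at in wider windows, chosen after the values were seen. Within 500 kb of its start 9 of 9 listed genes were lower, within 1000 kb 10 of 11 and within 2000 kb 20 of 24, where 39.8% of listed genes on chromosome 19 and 41.1% of all listed genes were lower. Around CXCL1 the counts lower were 4 of 5, 7 of 8 and 7 of 10, and around IL1A 4 of 8, 4 of 10 and 5 of 12. Around IL1B the counts lower were 4 of 7, 5 of 10 and 6 of 12, and around CXCL2 5 of 7, 6 of 9 and 6 of 10. These windows overlap for genes on the same stretch. On chromosome 4, which holds CXCL1 and CXCL2, 53.7% of listed genes were lower. The share was 44.1% on chromosome 2, which holds IL1A, IL1B and CCL20, and 42% on chromosome 7, which holds IL6. IL6 had 0, 2 and 3 listed genes in the 3 windows, of which 0, 1 and 2 were lower, and CCL20 had 1, 1 and 4, of which 1 was lower in each.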
